A study of Mus musculus with 10 samples.

Results

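The transsulfuration pathway and the steps around it were read here through 9 genes, Mat2a, Mtr, Ahcy, Cbs, Cth, Cdo1, Csad, Suox and Mpst, out of 52636 gene identifiers counted by RNA sequencing of mouse inguinal white fat, which lies under the skin. Cbs was less abundant in fat of Tcf7l2 knockout mice, at 1.06 ± 0.128 CPM in knockouts and 3.26 ± 0.352 CPM in controls (mean ± SD, n = 5 each; CPM are read counts scaled to library size), and Suox was also lower. Mpst was higher. On average Cth was higher and Mat2a lower too, but for both of these the groups overlapped. The 9 genes were named as a metabolic list, selected on earlier knockout against control values of the same libraries in which Cbs stood among the large falls. Their differences between the groups are therefore given as a description, without p-values. All 9 were found in the table and all 9 passed the filter on low counts.

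Methionine is activated to S-adenosylmethionine, which donates methyl groups and leaves S-adenosylhomocysteine and then homocysteine. Homocysteine is either methylated back to methionine or joined with serine and turned into cysteine, the route called transsulfuration. Cysteine is built into protein and glutathione, oxidised to sulfinate on the way to taurine or sulfite, or used as a source of hydrogen sulfide. Fat cells are known for a high level of cysteine dioxygenase and for making taurine.

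The 5 knockout libraries came from C57BL/6 mice with floxed Tcf7l2 alleles and a Cre recombinase written Adp-Cre, a driver directed to fat. The 5 control libraries came from mice with the floxed alleles and no Cre, labelled wild type. Both groups were 6 months old and on a 65% high-fat diet, given as 16 weeks in the diet label, 12 weeks in the sample descriptions and 4 months in the treatment protocol. The promoter behind the driver, the deleted exon and the sex of the mice are not stated in the labels. Replicates are numbered in the order of the records, so equal numbers pair nothing, and the titles hold 10 different numbers, 1 a library, whose meaning the labels do not spell out. If these are not separate mice, the p-values reflect a technical spread alone. A running number in the titles is 6 to 10 in knockouts and 1 to 5 in controls, so genotype and whatever that number follows cannot be told apart.

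Total counts were between 14032866 and 17782073 a library. All levels are CPM scaled by TMM factors, which correct for differences in library make-up, and 3 counts, the floor for a gene at 0, correspond to between 0.172 and 0.205 CPM (counting error only). Tcf7l2 stood at 5.57, 6.14, 6.20, 5.58 and 5.68 CPM in knockouts 1 to 5, against 11.1, 10.5, 9.16, 11.4 and 11.1 CPM in controls 1 to 5 (log2 fold change -0.87, SE 0.096, exact permutation p = 0.00794, two-sided, the smallest that 252 splits allow). The fat cell markers Adipoq, Plin1, Cidec, Fabp4, Lipe and Pparg were all present, with a summed level of 19497 to 27121 CPM in knockouts and 18139 to 23304 CPM in controls. Summed T cell markers were at 90.7, 16.1, 31.2, 26.5 and 29.2 CPM in knockouts 1 to 5 and 10.7 to 17.5 CPM in controls, with 5 of 6 called higher, and 4 of 6 without knockout 1. B cell markers were at 343, 20.5, 15.0, 41.5 and 27.7 CPM in knockouts 1 to 5 and 8.75 to 24.3 CPM in controls, with 4 of 6 called higher, and 2 of 6 without knockout 1. Knockout 1 stood far above the other libraries in both lists, and leaving it out lowered the median log2 fold change to 1.07 for T cell markers, against 1.79 with it, and to 1.02 for B cell markers, against 2.855 with it. Without knockout 1, 2 of the 9 members were called lower and 2 higher. In that fit 2273 of all 16104 tested genes were called. Endothelial markers were at 634 to 735 CPM in knockouts and 769 to 981 CPM in controls, with 5 of 6 called lower. In bulk tissue, fewer cells of a type and less RNA per cell cannot be told apart, and the part of these cells in the results below was not tested. Macrophage markers were at 2091 to 2362 CPM in knockouts and 1982 to 2540 CPM in controls, skeletal muscle markers at 26.6 to 594 and 17.8 to 463 CPM, and 6 epithelial markers summed to at most 1.67 and 1.23 CPM, with Krt14 at 0 in every knockout and Krt8 at 0 in every control library. Progenitor and fibroblast markers were at 1974 to 2246 CPM in knockouts and 2363 to 2993 CPM in controls, with 1 of 6 called lower (Dpt).

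A score of intronic-type transcripts, the mean log2 CPM of 786 genes annotated as sense intronic or as TEC, a class of tentative gene models, also moved with genotype. It lay between 0.06 and 0.46 in knockouts and between 0.38 and 1.27 in controls, where control 5 was the lowest (exact permutation p = 0.0238, two-sided). What the score measures in these libraries was not tested. It is used below as a covariate, an alternative chosen after the data were seen. With it, 49 genes in all were called, against 2053 without it.

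Stretches upstream of Cbs and Suox are shown first, as these were the members whose levels were lower in every knockout than in every control library. They are RefSeq promoter bases of GRCm38.p6 before the annotated start, limited to bases outside exons of any gene in GENCODE M21, on the minus strand, 5′ to 3′. Cbs is read from chr17:31637239-31637455 and Suox from chr10:128674074-128674168. Capitals mark the E-box CACGTG in the Cbs stretch. They also mark the GC box, whose letters are GGGCGG on one of the strands, and the CCAAT box, read on either strand. The promoter windows described below hold further matches outside the printed stretches. For Cbs these are a GC box at -33 and a CCAAT box at -15, in bases from the start. For Suox they are GC boxes at -17, -12, -7 and 29 and a CCAAT box at -85.
Cbs: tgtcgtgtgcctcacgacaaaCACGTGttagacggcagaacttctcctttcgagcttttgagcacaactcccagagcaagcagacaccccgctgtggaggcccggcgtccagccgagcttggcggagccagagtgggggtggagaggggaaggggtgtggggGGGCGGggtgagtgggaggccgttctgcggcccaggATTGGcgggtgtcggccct
Suox: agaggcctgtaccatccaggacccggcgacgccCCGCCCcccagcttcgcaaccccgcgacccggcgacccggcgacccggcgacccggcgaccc

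Promoter windows of 300 bases, 250 before and 50 after the start, were held for 7 of the 9 members and 10 starts, among 32851 such windows of all genes. Cth and Cdo1 had no window, and some windows of Mpst overlap each other. Both strands were searched. The TCF/LEF letters CTTTGAT, the core bound by the family of the deleted factor, occurred in 0 of the 10 windows and in 3.73% of all windows. The related CTTTGTT occurred in 1 window, of Mpst, and in 5.85% of all. The ATF4-type element TGATGNAA was in 0 of 10 and 3.97% of all, and the antioxidant-type element TGACNNNGC in 1, also of Mpst, and 12.4% of all. The E-box CACGTG was found in the Cbs window and in 7.15% of all. GC boxes were in 6 of 10 windows, of Cbs, Mat2a, Ahcy, Mtr, Csad and Suox, and in 35.7% of all, while CCAAT boxes were in 6 of 10 windows, also of these genes but at the other start of Csad, and in 37.4% of all. GC boxes overlapped each other in the Mat2a and Suox windows, and no match overlapped one of another motif. A match describes letters in these windows and nothing about binding, and 8 of the 10 windows had a GC content above the median of 52.7%.

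Per kilobase of annotated exon, the members' levels spanned more than the fold changes between the groups. Cdo1, which oxidises cysteine to cysteine sulfinate, was the most abundant, at 459 ± 44.2 CPM per kb in knockouts and 429 ± 40.6 CPM per kb in controls (SD, n = 5 each). It held between 79.5 and 81.3% of the members' summed per-kb level in knockouts and between 74.4 and 80.0% in controls. Mat2a, at 51.1 and 61.7 CPM per kb in knockouts and controls, Csad at 25.8 and 28.2, and Mpst at 14.8 and 11.4 followed in both groups, each without overlap with its neighbour in the order.

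The lower end of the order differed between the groups. In knockouts it ran from Ahcy at 7.20 CPM per kb through Mtr at 5.47, Suox at 5.35 and Cth at 4.69 to Cbs at 0.142, and the ranges of Mtr and Suox overlapped, as did those of Suox and Cth. In controls Suox came first at 7.99 CPM per kb, then Mtr at 6.12, Ahcy at 5.94, Cth at 3.14 and Cbs at 0.436, and there the ranges of Mtr and Ahcy overlapped. Cbs was last in both groups, also per length of the longest coding transcript. With that length, the ranks of Suox, Mtr, Ahcy and Cth changed, Cth being 6th in knockouts and 8th in controls.

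**Figure D1:**
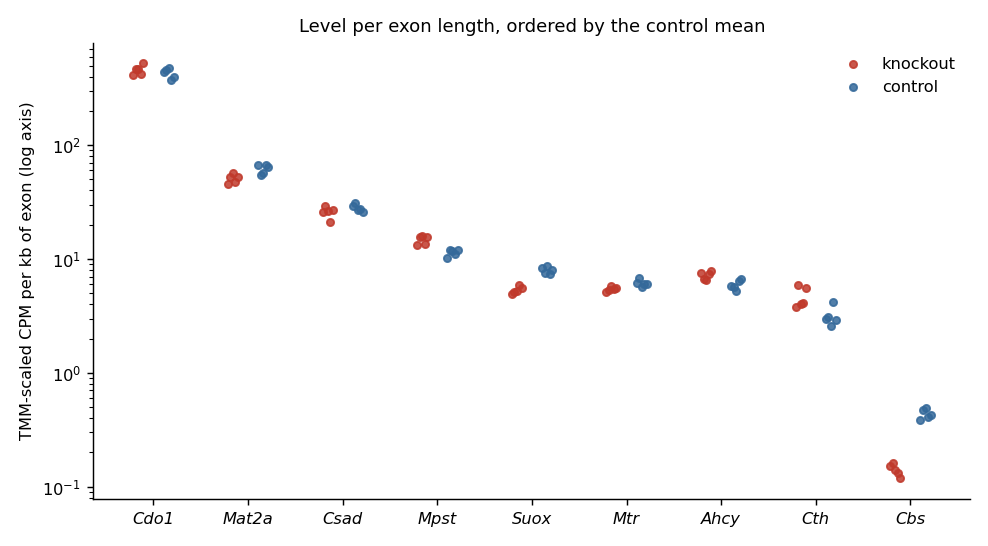
Level of the 9 genes per kilobase of annotated exon in each library (log axis), knockout in red left of control in blue, ordered by the control mean. Cdo1 lies above the rest in every library, and Cbs lies below it, at 0.142 CPM per kb on average in knockouts and 0.436 in controls.

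By edgeR across 15927 genes, 3 of the 9 members were called lower in knockouts (Cbs, Suox and Mat2a), 2 higher (Cth and Mpst) and 4 not called, at an adjusted p below 0.05. Over all tested genes 12.9% were called, 7.05% lower and 5.84% higher. Since this comparison was known when the genes were named, nothing is read from the members' share. The fits below that leave out libraries or change settings reuse the same values. A member's call that holds in them is therefore a description too. The members' median log2 fold change was -0.12 and that of all tested genes was 0.00018. In 3 members the groups did not overlap, Cbs and Suox below and Mpst above the controls, while this held for 8.99% of all tested genes, 4.45% with the knockouts below and 4.55% with the knockouts above.

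**Figure D2:**
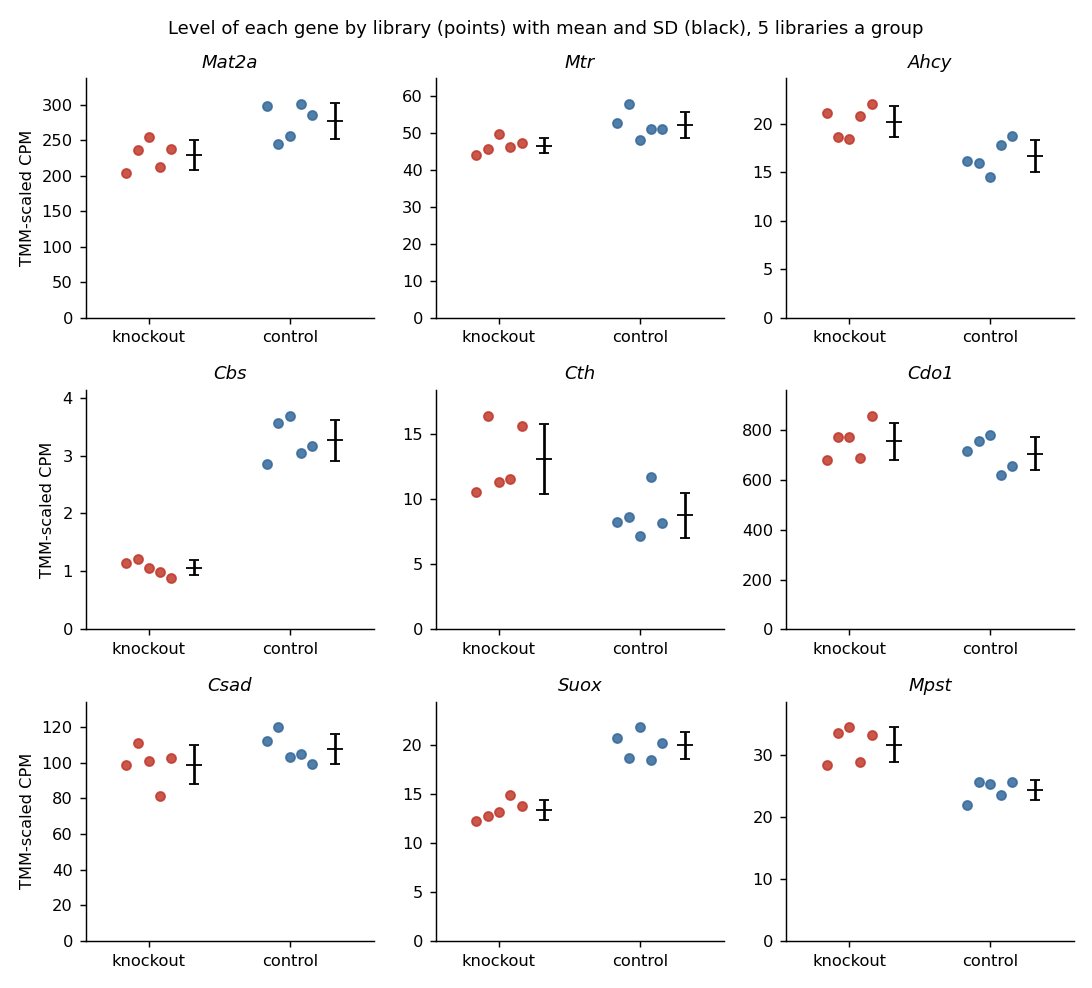
TMM-scaled CPM of each gene in the 5 knockout (red, left) and 5 control (blue, right) libraries, with mean and SD in black, on axes that start at 0. The knockouts lie below all controls for Cbs and Suox and above all controls for Mpst.

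Of the 3 methionine cycle members, Mat2a was called by edgeR. Mat2a, the enzyme that makes S-adenosylmethionine outside the liver, stood at 204, 236, 255, 213 and 237 CPM in knockouts 1 to 5 and 298, 245, 255, 301 and 286 CPM in controls 1 to 5. The groups overlapped, as knockout 3 lay above control 2. Its log2 fold change was -0.27 (SE 0.081), and the call was lost without control 1, 2, 4 or 5 or knockout 1, 2, 4 or 5, as well as without a count filter (-0.24), with quality weights (-0.23), with 1 surrogate variable (-0.28), after adjustment for the intronic-type score (-0.30) and without both control 5 and knockout 1 (-0.22). Its fold change thus stayed between -0.31 and -0.22 in every fit that lost the call. Of its exonic bases, 11.3% are shared with Particl, an RNA of the opposite strand, whose reads may have been counted with it. Particl itself held 206 counts over all libraries, against 40310 for Mat2a.

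Mtr, the vitamin B12-dependent methionine synthase, was at 44.0, 45.8, 49.7, 46.2 and 47.4 CPM in knockouts and 52.7, 57.8, 48.2, 51.1 and 51.0 CPM in controls. Knockout 3 lay above control 3, the one crossing of the groups, and the log2 fold change of -0.16 (SE 0.061) was not called. Ahcy, which splits S-adenosylhomocysteine into adenosine and homocysteine, had 21.1, 18.7, 18.4, 20.8 and 22.04 CPM in knockouts, against 16.1, 16.0, 14.6, 17.8 and 18.8 CPM in controls. Control 5 lay above knockouts 2 and 3, and the log2 fold change of 0.28 (SE 0.086) was not called by edgeR. It was called without control 5 (0.33), without both control 5 and knockout 1 (0.31), with RLE scaling (0.28), by DESeq2 (0.28) and by limma-voom with quality weights (0.26). Ahcy has processed copies, of which Gm4737 shares 2083 bases at 99.7% identity, but the 4 copies found held at most 15 counts each over all libraries, against 2932 for Ahcy.

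Cbs and Cth, the consecutive enzymes of transsulfuration, went in opposite directions. Cbs, which joins homocysteine and serine into cystathionine, is encoded on chromosome 17 (ENSMUSG00000024039, GRCm38, 31608894 to 31637238, minus strand). Its level was 1.15, 1.22, 1.06, 0.996 and 0.890 CPM in knockouts 1 to 5 and 2.86, 3.57, 3.69, 3.04 and 3.16 CPM in controls 1 to 5. Every knockout lay below every control, and the knockout mean was 32.5% of the control mean (log2 fold change -1.61, SE 0.166).

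These values rest on few reads, between 13 and 20 counts a library in knockouts and between 45 and 60 in controls. The call for Cbs held in 10 of 10 fits that left out 1 library, with log2 fold changes between -1.66 and -1.55. It also held after adjustment for the intronic-type score (-1.60). These fits reuse the libraries on which the genes were selected and are no independent support. Transcripts of 5 other genes share stretches of 226 to 422 bases with Cbs at 90.5 to 92.0% identity, and how reads matching several places were counted is not stated in the labels. Over all libraries, Sin3b among them held 10533 counts, Rdh16 109 and Gm9978 91, against 347 for Cbs. Cbs is abundant in liver, and the liver gene Alb was at 9.24 to 36.8 CPM in knockouts and 5.16 to 30.5 CPM in controls, ranges that overlapped. The 6 liver markers together summed to 15.4 to 48.5 CPM in knockouts and 11.2 to 54.5 CPM in controls. Whether liver-type RNA had a part in the Cbs levels was not tested.

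Cth (ENSMUSG00000028179, chromosome 3, 157894248 to 157925077, minus strand) encodes the enzyme that cleaves cystathionine to release cysteine. It stood at 10.6, 16.4, 11.3, 11.5 and 15.6 CPM in knockouts 1 to 5 and 8.21, 8.59, 7.19, 11.7 and 8.15 CPM in controls 1 to 5. Knockouts 2 and 5 were the highest, and control 4 lay above knockouts 1, 3 and 4. Cth had the widest spread among the members, with a coefficient of variation of 20.6% in knockouts and 19.6% in controls, where the other 8 members lay between 4.50 and 12.0%. Its log2 fold change was 0.58 (SE 0.157), a call lost without control 1, 2 or 3 or knockout 2 or 5, with 1 surrogate variable (0.64) and after adjustment for the intronic-type score (0.60).

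Set against each other within a library, Cth exceeded Cbs per kilobase of exon by factors of 24.7, 36.2, 28.8, 31.1 and 47.0 in knockouts 1 to 5 and by 7.71, 6.47, 5.23, 10.3 and 6.90 in controls 1 to 5. The groups did not overlap, and the mean ratio was 4.58 times as large in knockouts as in controls. With the longest coding transcripts as lengths the ratios were 31.6 to 60.2 in knockouts and 6.69 to 13.2 in controls. The ratio combines 2 members of this list and was not tested.

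**Figure D3:**
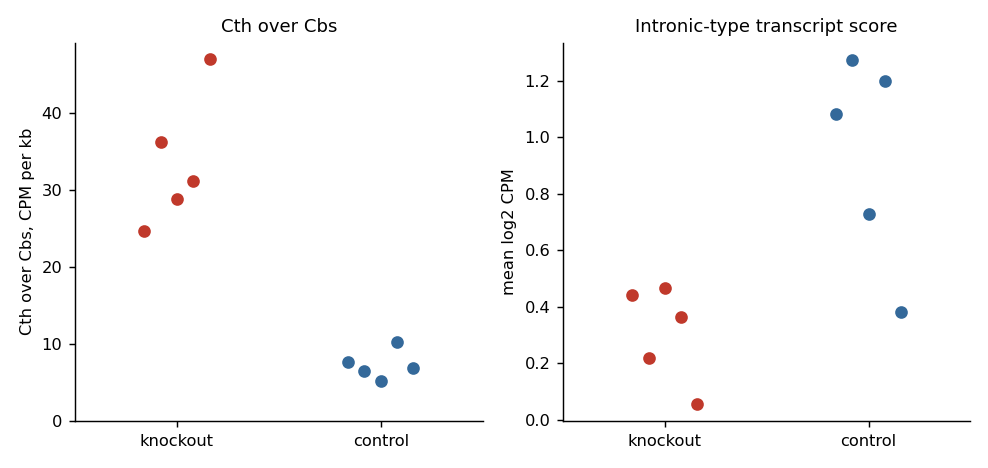
Left, level of Cth over level of Cbs in each library, both per kb of exon; right, mean log2 CPM of the intronic-type transcripts, with knockouts in red left of controls in blue. The ratio is at least 24.7 in knockouts and at most 10.3 in controls, while for the score control 5 lies inside the knockout range.

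On the oxidising branch, Cdo1 and Csad were not called and Suox was called lower. Cdo1 (chromosome 18) was at 681, 771, 773, 688 and 858 CPM in knockouts and 715, 756, 778, 619 and 657 CPM in controls, with overlapping groups and a log2 fold change of 0.10 (SE 0.086) that was not called. Csad, which decarboxylates cysteine sulfinate to hypotaurine, the precursor of taurine, had 99.0, 111, 101, 81.3 and 102 CPM in knockouts and 112, 120, 103, 105 and 99.1 CPM in controls. Those groups overlapped as well, and its log2 fold change of -0.12 (SE 0.081) was not called. Zfp740, on the opposite strand, shares 7.26% of the exonic bases of Csad.

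Suox (ENSMUSG00000049858, chromosome 10, 128669894 to 128674073, minus strand), the mitochondrial enzyme that oxidises sulfite to sulfate, was at 12.3, 12.7, 13.1, 14.9 and 13.8 CPM in knockouts 1 to 5 and 20.7, 18.7, 21.8, 18.5 and 20.2 CPM in controls 1 to 5. The highest knockout lay below the lowest control, and the knockout mean was 67.0% of the control mean (log2 fold change -0.58, SE 0.080). The call held in 10 of 10 leave-out fits (-0.62 to -0.54) and after adjustment for the intronic-type score (-0.68).

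Mpst (ENSMUSG00000071711, chromosome 15, 78406416 to 78414013, plus strand) encodes a sulfurtransferase that takes sulfur from mercaptopyruvate, a product of cysteine, and can release hydrogen sulfide. Its level was 28.3, 33.5, 34.4, 28.8 and 33.1 CPM in knockouts 1 to 5, against 21.96, 25.6, 25.3, 23.5 and 25.6 CPM in controls 1 to 5. Every knockout was above every control (log2 fold change 0.37, SE 0.076). The call held in 10 of 10 leave-out fits and was lost after adjustment for the intronic-type score, where the log2 fold change was 0.29.

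**Figure D4:**
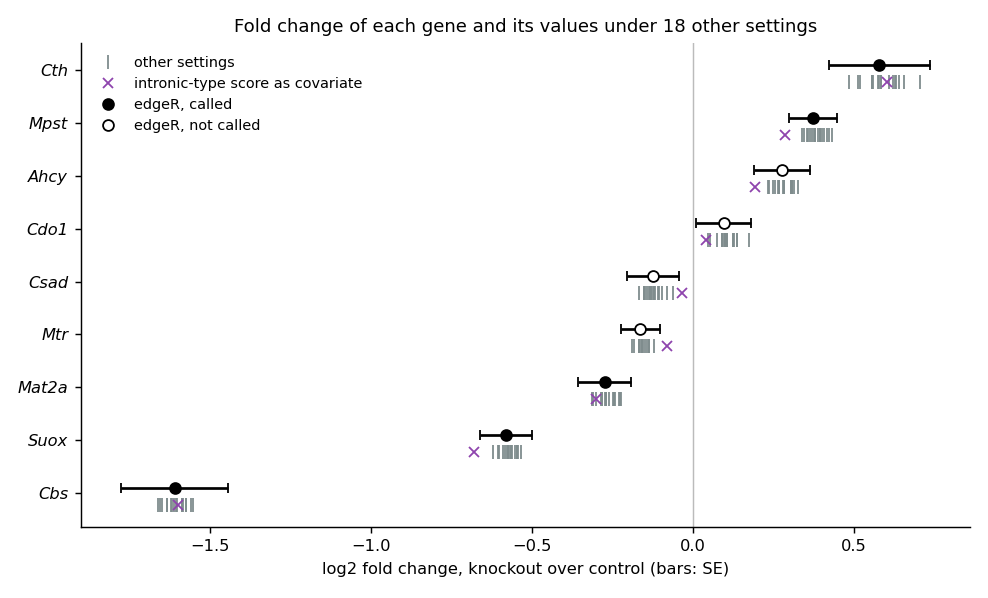
Log2 fold change of the 9 genes, knockout over control, by edgeR (circles, filled where called, bars are SE) and under 18 other settings (ticks, and a cross for the intronic-type score as a covariate). Cbs keeps values near -1.61 and no gene changes sign under these settings.

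Other genes of the pathway were taken from 7 lists of 94 genes that hold none of the 9, of which 84 passed the filter on low counts. By edgeR, on which the counts of each list also rest, 8 were called higher and 7 lower (17.9%, against 12.9% of all tested genes), and their median log2 fold change was 0.08. These lists, too, were chosen with earlier results of these data known, so nothing is read from their share. The adjusted p-values given for their genes below are a description. The number higher was 2 without control 1, 3 without control 2, control 4 or knockout 5, 5 without knockout 2 and 14 without knockout 1. That lower was 4 without control 1, control 3, knockout 1 or knockout 2 and 3 without control 2 or control 4. After adjustment for the intronic-type score, 0 were higher and 1 lower (Sqor). The log2 fold changes of the other genes that passed in every leave-out fit stayed of like size after it, at -0.65 for Fmo1 (-0.67 before), 0.33 for Mtrr (0.34), 0.35 for Gamt (0.36) and -0.35 for Ahcyl2 (-0.40), and their calls were lost.

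The methionine cycle and the use of S-adenosylmethionine had 5 of 13 tested genes higher and 2 lower (median log2 fold change 0.13). Mtrr, the reductase that keeps Mtr active, was at 23.8 ± 1.86 CPM in knockouts and 18.7 ± 1.25 CPM in controls (SD, n = 5 each, log2 fold change 0.34, SE 0.075, adjusted p = 0.0167). Gamt, a methyltransferase that makes creatine, rose by 0.36 on the log2 scale (adjusted p = 0.00996). Ahcyl2, an Ahcy-like protein, was at 110 ± 9.62 CPM in knockouts and 145 ± 10.8 CPM in controls (-0.40, SE 0.073, adjusted p = 0.00951). These 3 passed in every leave-out fit, and their groups did not overlap.

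Of the other called genes in this list, chosen after their values were seen, Pemt, which methylates phosphatidylethanolamine, rose by 0.45 (adjusted p = 0.0247), the nicotinamide methyltransferase Nnmt by 0.35 (adjusted p = 0.0368) and Enoph1 of the methionine salvage route by 0.26 (adjusted p = 0.0385), while Ahcyl1 fell by 0.20 (adjusted p = 0.0479). Pemt was lost without control 1, 2 or 4 or knockout 2 or 5, and Nnmt without these or knockout 3. Enoph1 was kept without control 3, control 5 or knockout 1 and Ahcyl1 without knockout 4, and both were lost in the other leave-out fits. Mat1a, Gnmt, Bhmt and Bhmt2, known for high levels in liver, averaged at most 0.353 CPM in knockouts and 0.453 CPM in controls and were not tested.

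Sulfide and sulfite handling had 1 of 12 tested genes higher and 3 lower (median 0.11). Sqor, the mitochondrial enzyme that oxidises hydrogen sulfide, was at 67.0, 73.2, 70.2, 70.1 and 74.5 CPM in knockouts 1 to 5, against 99.99, 89.6, 95.2, 83.4 and 99.4 CPM in controls 1 to 5. The groups did not overlap (log2 fold change -0.40, SE 0.061, adjusted p = 0.00393), the gene passed in every leave-out fit, and it passed after adjustment for the intronic-type score (-0.52). Kyat1 and Kyat3, which split cysteine conjugates, were at 0.39 (adjusted p = 0.0253) and -0.34 (adjusted p = 0.0414). Kyat1 was lost without control 1, 2 or 4 or knockout 5, and Kyat3 in every leave-out fit except that without knockout 5. Selenbp1, which oxidises methanethiol and was also chosen after its values were seen, was at -0.25 (adjusted p = 0.0452) and was kept without control 5 or knockout 3 only. Gphn, Mocs1, Mocs2 and Mocs3, which make the molybdenum cofactor of Suox, were not called (adjusted p between 0.0708 and 0.299).

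The taurine list had 0 of 6 tested genes higher and 1 lower by edgeR, and 1 higher with quality weights or without both control 5 and knockout 1. Fmo1, an oxygenase that can turn hypotaurine into taurine, was at 68.7 ± 11.2 CPM in knockouts and 109 ± 15.8 CPM in controls (-0.67, SE 0.121, adjusted p = 0.0085) and passed in every leave-out fit. In the folate and serine list 1 of 14 was higher, Psph, the last enzyme of serine synthesis (0.30, adjusted p = 0.0374), which was lost without control 1, 2 or 4 or knockout 2 or 5. Among genes of the B6 and B12 cofactors 1 of 11 was higher, Cd320, the receptor for B12 bound to its carrier (0.50, adjusted p = 0.017), lost without control 1, while DESeq2 called 2 of the list higher and quality weights 3.

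Cystine uptake and glutathione synthesis had 0 genes higher and 0 lower of 16 by edgeR, 5 with an unadjusted p below 0.05, 1 higher by DESeq2, 0 by limma-voom and 5 higher with quality weights. Of all 15927 tested genes, 4930 had an unadjusted p below 0.05 by edgeR. DESeq2 called 2668 of them, limma-voom 1646 and quality weights 3605, so nothing is read from the counts of this list. The most abundant gene of the list, the transporter Slc1a5, was at 953 ± 79.3 CPM in knockouts and 1014 ± 111 CPM in controls (adjusted p = 0.524). Of 12 response genes of ATF4, a factor that answers amino acid shortage, 1 was lower, the secreted stanniocalcin Stc2 (-0.63, adjusted p = 0.023, lost without control 2, control 4 or knockout 5), and 0 were higher by edgeR. In that list DESeq2 called 1 higher, quality weights gave 1 higher and 2 lower, and leaving out both control 5 and knockout 1 gave 2 higher.

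**Figure D5:**
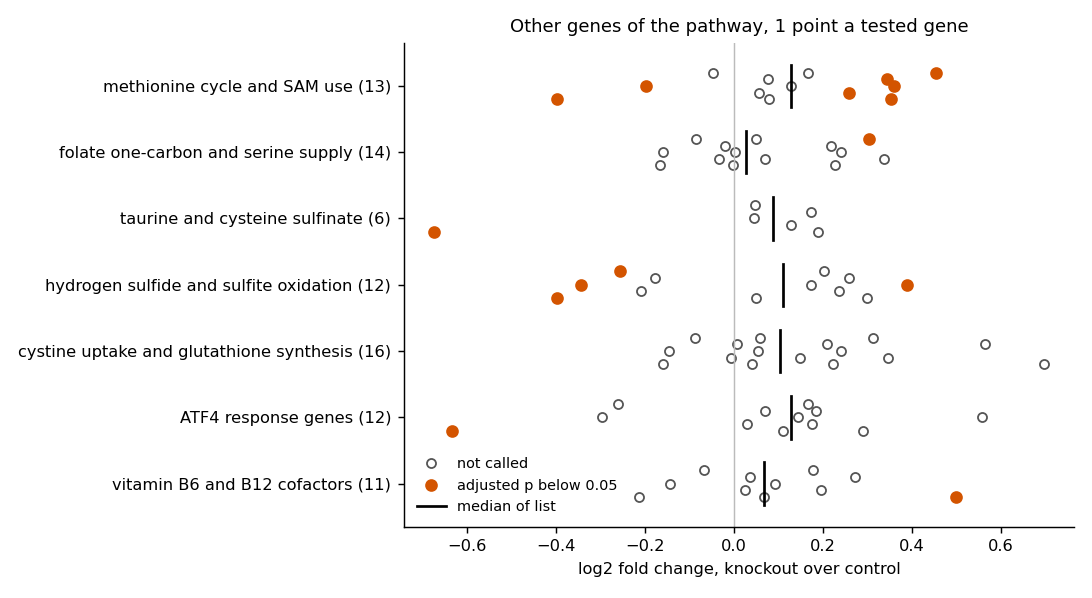
Log2 fold change, knockout over control, of 84 tested genes in the 7 lists around the pathway, with called genes filled and the median of each list as a black bar. The methionine cycle list holds 7 of the 15 called genes, and the cystine and glutathione list holds 0.

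For Cbs, the 5 genes whose log2 CPM followed it most closely within the groups, after each group's mean was removed, were Spsb3 (r = 0.90), Nudt16l1 (0.87), Endog (0.87), Acvr2b (0.87) and Rnf215 (0.86). These are Pearson correlations over 10 libraries that share their depth and scaling, the highest of 12257 genes compared, and are a description only. Cbs held 13 to 20 counts a library in knockouts and 45 to 60 in controls. Whether its variation within the groups exceeded counting noise was not tested, so the correlations are not read as shared regulation.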

How the data were processed

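RNA from 10 libraries was counted per gene. The authors deposited raw read counts, 1 column a library, without normalization. Per the submitters' processing notes, GRCm38 and the tools STAR 2.5.2b, featureCounts 1.5.1 and DESeq2 1.16.0 were in use. Which annotation and strand setting they took, and how reads matching several places were counted, is not stated there. A kit that marks strand and removes ribosomal RNA was used per the labels' protocols.

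The genes and lists were chosen with earlier results of these data known. Symbols and positions came from GENCODE M21 (GRCm38), which matched 52489 of 52636 identifiers. Genes were filtered with filterByExpr, scaled by TMM and compared between knockouts and controls by edgeR 4.0.16 (quasi-likelihood F test, two-sided, R 4.3.3) with Benjamini-Hochberg adjustment over all tested genes. The SE is the absolute log2 fold change over the square root of F. The fit was tried on simulated counts with known changes, in which each gene varied independently. It therefore says nothing about calls under shifts shared by many genes, such as the intronic-type score. The 20 same-group pairs differed by more than counting noise (chi-square per degree of freedom 7.13 to 29.4), so no library was treated as a repeat deposit of another; this does not show that they are separate mice. Alternatives were RLE scaling, no count filter, DESeq2 1.42.0, limma-voom 3.58.1 with and without quality weights, 1 surrogate variable (sva 3.50.0) and leaving out each library. Added after the data were seen were the intronic-type score and leaving out control 5 and knockout 1 together.

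By a rule, the text names the 9 genes and Tcf7l2, up to 3 called genes of smallest p from each list around the pathway (or its most abundant gene where none was called), and the 5 genes most like Cbs. The other called genes of these lists, Ahcyl1, Nnmt, Pemt, Enoph1 and Selenbp1, were added after their values were seen. Some uncalled or untested genes of the lists and some marker genes are named as well. Of the listed genes, 1 (Pdxp) had no identifier in the table. Marker lists hold 6 genes each.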

Additional observations from a re-analysis of the deposited data

Results flagged for a closer look

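Dixon's test over 52 sets of 5 libraries (26 of the genes named in the report, each group) marked 2, and chance marks about 5% of such sets. Kyat1 in knockout 5, at 20.3 CPM, stood above the other knockouts, the nearest at 16.4 CPM. Selenbp1 in control 3, at 149 CPM, stood above the other controls, the nearest at 130 CPM. None of the 9 genes or Tcf7l2 had such a library.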

How the results depend on the processing

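The number of the 9 genes called lower was 3, and it was between 2 and 3 under all 18 alternatives. The number called higher was 2, but 1 when 1 surrogate variable was fitted and 0 after adjustment for the intronic-type score, and it ran from 1 to 3 when 1 library was left out. The 84 tested genes around the pathway gave 8 higher and 7 lower. With quality weights 18 were higher. Without a count filter 4 were lower, and with 1 surrogate variable 3. With the intronic-type score 0 were higher and 1 lower, and without both control 5 and knockout 1, 17 and 4. Leaving out 1 library gave 2 to 14 higher and 3 to 6 lower. Over all genes 2053 were called, against 3605 with quality weights, 754 with 1 surrogate variable, 49 with the intronic-type score, 3774 without both libraries and 537 to 3094 with 1 library left out. The cause of these differences was not tested. Tcf7l2 stayed called, between -0.92 and -0.83. Over 450 pairs of a named gene and an alternative, 334 kept direction and call, 110 lost the call, 5 gained it and 1 changed sign (Slc1a5, 0.0216 with the intronic-type score). No paired analysis was possible because the labels give the groups no shared replicate numbers. Depth limits Cbs, at 13 to 60 counts a library, and genes under 3 counts.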
